A study of Mus musculus with 8 samples.

Results

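Imprinted genes are transcribed mainly from the allele inherited from 1 parent. A list of 37 of them was looked up by symbol in a count table of 52636 mouse Ensembl identifiers, and all 37 matched 1 identifier each. By textbook knowledge 16 are maternally expressed in mouse, 20 are paternally expressed, and Gnas makes transcripts of both kinds. Of the maternally expressed, Kcnq1, Copg2, Commd1, Cd81, Nap1l4, Gatm and Dcn are known to be so in some tissues only. Whether they are imprinted in epiblast was not measured. The counts do not separate alleles, so every value here is the sum over both. After removal of genes with low counts, 36 of the 37 were tested, among 18321 genes in all; Kcnq1 was the exception.

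The RNA came from epiblast of mouse embryos at embryonic day 5.5, the layer from which the body forms. All groups carried Sox2Cre;CRAFR26, in which Sox2Cre drives recombination in the epiblast and the cRAF construct lets 4-hydroxytamoxifen (4OHT) switch on ERK, a kinase that relays growth factor signals. There were 4 groups of 2 libraries: clone 4 and clone 8, each with ethanol vehicle or with 250 nM 4OHT in IVC2 medium. The 4OHT libraries were taken after 4 h; the vehicle libraries are titled 0 h, but their treatment label gives 4 h in ethanol, so 4 h of culture may or may not be part of each 4OHT comparison. Each library was a pool of 10 epiblasts, from which the extraembryonic layers had been dissected, and 7 ng of RNA entered a low-input library kit. No group received 4OHT without the construct, so the agent and the induced kinase cannot be told apart, and with 2 clones a difference between them describes these clones. The labels do not say that replicates came from separate litters, so p-values measure only the spread between these libraries, which may be technical.

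Imprinting is set in the germ line, where DNA methylation marks control regions differently in eggs and sperm, and in the early embryo zinc finger proteins such as ZFP57 with the corepressor TRIM28 keep those marks through the wave of demethylation. Several imprinted genes regulate growth: paternally expressed genes such as Igf2 and Peg3 have largely been tied to larger size of the fetus or placenta, and maternally expressed ones such as Igf2r, Grb10, Cdkn1c and Phlda2 to restraint. Many lie in clusters in which a long noncoding RNA and its protein-coding neighbours are expressed from opposite parental chromosomes.

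Upstream sequences of some members whose counts differed between groups are shown first, with Usp29 beside Peg3. Whether they include the control regions of imprinting was not tested. For Mest, Meg3 and Grb10, which have several annotated starts, the start with most matches to the hexamer described below, then with most CpG, was chosen. The sequences were taken from RefSeq on GRCm38 (mm10), 5′ to 3′, and none overlaps an annotated exon. Peg3 and Usp29, both paternally expressed, are transcribed away from each other, and the 146 bases between their starts, chr7:6730432-6730577 on the plus strand, hold 5 CpG dinucleotides, shown in capitals.
Peg3-Usp29: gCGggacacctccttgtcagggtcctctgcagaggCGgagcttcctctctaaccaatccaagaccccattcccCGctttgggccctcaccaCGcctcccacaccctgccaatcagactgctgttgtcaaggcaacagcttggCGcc
The 250 bases before a Mest start, chr6:30737800-30738049 on the plus strand, and before a Meg3 start, chr12:109540746-109540995 on the plus strand, hold the hexamer TGCCGC, which ZFP57 is known to bind when its CpG is methylated. It is in capitals, and here it reads as its reverse complement.
Mest: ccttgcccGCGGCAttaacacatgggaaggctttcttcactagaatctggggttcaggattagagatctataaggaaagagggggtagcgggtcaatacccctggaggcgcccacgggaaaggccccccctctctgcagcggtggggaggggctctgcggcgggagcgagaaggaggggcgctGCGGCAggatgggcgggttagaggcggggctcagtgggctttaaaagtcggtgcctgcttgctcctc
Meg3: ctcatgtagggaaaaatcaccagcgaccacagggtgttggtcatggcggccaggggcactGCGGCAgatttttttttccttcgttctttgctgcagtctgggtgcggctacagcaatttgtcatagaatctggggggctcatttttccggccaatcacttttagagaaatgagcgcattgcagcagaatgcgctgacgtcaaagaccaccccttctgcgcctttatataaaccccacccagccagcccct
The 250 bases before a Grb10 start, chr11:12037421-12037670 on the minus strand, hold 40 CpG, again in capitals. They hold no hexamer, but 1 lies in the 50 bases after the same start, which are not shown.
Grb10: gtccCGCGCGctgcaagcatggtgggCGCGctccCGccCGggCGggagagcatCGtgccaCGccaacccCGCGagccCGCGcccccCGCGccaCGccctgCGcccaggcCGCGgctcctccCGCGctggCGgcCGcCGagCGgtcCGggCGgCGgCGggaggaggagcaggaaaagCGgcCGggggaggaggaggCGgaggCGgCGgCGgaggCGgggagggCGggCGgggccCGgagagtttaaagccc

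RefSeq windows from 250 bases before to 50 bases after a start were at hand for 27 of the 37 members, 41 windows in all. TGCCGC, searched on both strands, was in 11 of the 41 windows (26.8%), from 10 members, against 11.6% of all 32851 windows. Member windows were also richer in CpG, with a median of 14 against 7, and the hexamer holds a CpG. Among windows with at least 10 CpG it was in 10 of 28 member windows (35.7%) and in 22.5% of 14281 windows. Windows can overlap: those of Mest at chr6:30737800-30738099 and chr6:30737803-30738102 share nearly all bases, and both were counted with the hexamer. Overlap among all windows was not examined. A match describes letters and is not evidence of binding. H19 is the host of a microRNA whose mature strands are shown because H19 was the member whose response differed between the clones; capitals mark the seed, bases 2 to 8.
miR-675-5p: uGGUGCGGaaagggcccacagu
miR-675-3p: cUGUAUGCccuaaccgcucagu
The annotated gene of this microRNA, Mir675, had 0 counts in every library, and the mature strands were not measured.

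Total counts ran from 33.3 M to 38.0 M (M, mega) in vehicle and from 56.4 M to 72.5 M after 4OHT. Replicates of a group correlated at 0.955 to 0.981 (Pearson, log2 CPM, across genes, which are not independent replicates). CPM denotes counts per M of the library size after TMM scaling. The 9 epiblast markers were detected in every library and summed to 4574 to 5748 CPM. Dnmt3b, which is also on the list of imprint maintenance genes, gave 2409 to 3188 CPM of that sum, Pou5f1 435 to 888 CPM and Sox2 10.1 to 32.7 CPM. Markers of other cell types also had counts, at levels that varied between groups. The 14 extraembryonic ectoderm genes summed to 246 and 293 CPM in vehicle clone 8 and to 597 to 889 CPM in the other 6 libraries, and 0 of the 14 were at 0 in any library. The 16 visceral endoderm genes summed to 607 and 932 CPM in vehicle clone 4, 1944 and 1977 CPM in vehicle clone 8, 2765 and 3167 CPM in 4OHT clone 4, and 515 and 1364 CPM in 4OHT clone 8. The 11 genes of decidua and maternal stroma summed to only 21.1 to 31.5 CPM, and 6 of them, including the decidual prolactins Prl8a2 and Prl3c1, were at 0 in at least 1 library. Whether the counts of these markers came from other cells or from the epiblast itself was not tested. Fewer cells of a type and less RNA per cell cannot be told apart in such bulk samples.

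**Figure D1:**
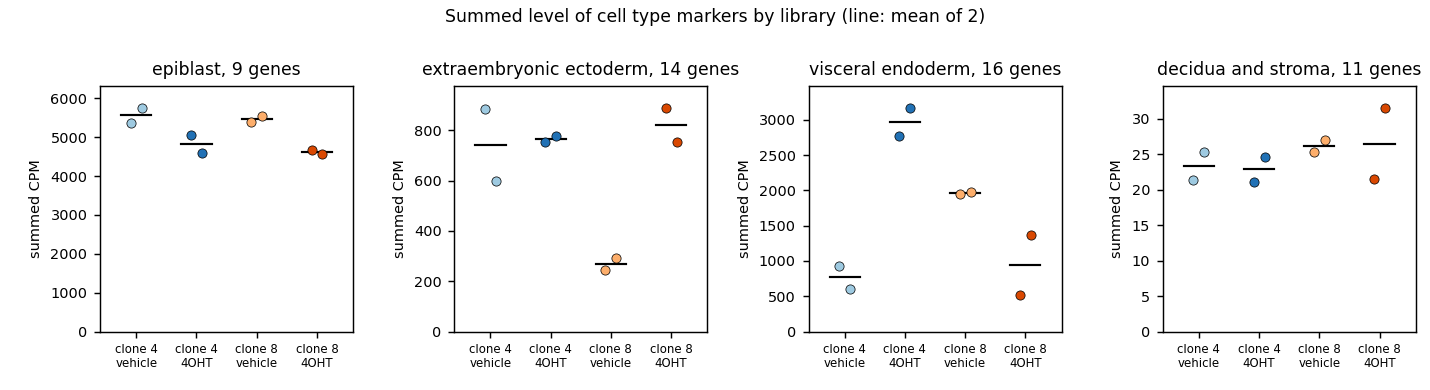
Summed CPM of 4 lists of cell type markers (y axis) in each library by group (x axis), with points for libraries and a line for the mean of 2. The sum of extraembryonic ectoderm markers was lowest in vehicle clone 8 (246 and 293 CPM), and that of visceral endoderm markers was highest in 4OHT clone 4 (2765 and 3167 CPM).

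Members were first set in order by CPM divided by exon length. Snrpn, the gene of a small nuclear ribonucleoprotein subunit, was highest at 143 ± 19 CPM per kb of exon (SD, n = 8 libraries). Next came the placental growth restrainer Phlda2 at 110.3 ± 55.3, the histone chaperone gene Nap1l4 at 100.1 ± 10.1 and the noncoding RNA H19 at 78.1 ± 23.1 CPM per kb. Snrpn and Nap1l4 were separated by more than their SDs, while the spread of Phlda2 overlapped both of them and that of H19 overlapped Nap1l4. At the low end stood the zinc finger gene Plagl1 at 0.117 ± 0.0384, the noncoding RNA Airn at 0.0607 ± 0.0342, the zinc finger gene Zim1 at 0.0216 ± 0.0138 and the potassium channel gene Kcnq1 at 0.00675 ± 0.0130 CPM per kb. Kcnq1 had 0 counts in 5 of the 8 libraries and at most 5 counts in any; a library with 0 counts allows up to 0.0417 to 0.0893 CPM, the worth of 3 counts, which covers counting error only. With the longest transcript in place of the union of exons, the 4 highest and the 4 lowest were the same members. Their order was not the same, with Phlda2 at 163 CPM per kb then above Snrpn at 149 CPM per kb.

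Maternally expressed members had a median of 7.34 CPM per kb (range 0.00675 to 110.3, n = 16 genes), and paternally expressed members 1.73 CPM per kb (0.0607 to 143, n = 20 genes). The median of tested genes with a length was 1.91 CPM per kb (n = 18293), and 12 of 16 maternally and 9 of 20 paternally expressed members lay above it. The classes overlapped across nearly the whole range. The maternal class holds the genes known to be imprinted in some tissues only, such as Nap1l4 and Cd81. In each of the 8 libraries the maternal median was higher, at 5.12 to 8.20 against 1.21 to 1.90 CPM per kb. The libraries share the same genes, so these are not 8 independent observations.

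Within clusters, partners differed. In the H19-Igf2 pair the growth factor gene Igf2 stood at 8.05 ± 1.51 CPM per kb, below H19. In the Dlk1-Meg3 cluster the maternally expressed noncoding RNAs were at 8.78 ± 4.75 (Meg3), 3.76 ± 0.930 (Rian) and 1.2 ± 0.617 CPM per kb (Mirg), and the paternally expressed Dlk1, a membrane inhibitor of differentiation, and Rtl1, a retrotransposon-derived gene of the placenta, at 0.557 ± 0.228 and 0.193 ± 0.126 CPM per kb. Igf2r, the receptor that clears IGF2, reached 5.90 ± 1.45 CPM per kb, and Airn, the antisense RNA that silences it on the paternal chromosome in many tissues, 0.0607 CPM per kb. In the cluster of Snrpn, the genes Ndn (4.86 ± 0.731), Peg12 (1.80 ± 0.880), Mkrn3 (1.66 ± 0.343) and Magel2 (0.819 ± 0.405 CPM per kb) were all far below Snrpn. Peg10 and Sgce, which start back to back, stood at 21.6 ± 10.3 and 0.626 ± 0.289 CPM per kb, and Peg3 and Usp29 at 14.3 ± 3.51 and 0.163 ± 0.0294 CPM per kb.

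Some of these levels are uncertain, because reads in shared exons can be assigned to either gene and the counting rule is not given in the sources used here. Other genes overlapped 64.5% of the exon bases of Igf2 and 34.1% of those of Snrpn, nearly all on the same strand for Igf2 (1.71% on the opposite strand) and mostly so for Snrpn (6.86%). Snurf, which shares exons with Snrpn, had 0 counts. Genes on the opposite strand overlapped 38.5% of Nespas, 22.0% of Gnas, 23.1% of Mest and 17.8% of Copg2, the last 2 meeting tail to tail, and whether strand was used in counting is not given either.

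**Figure D2:**
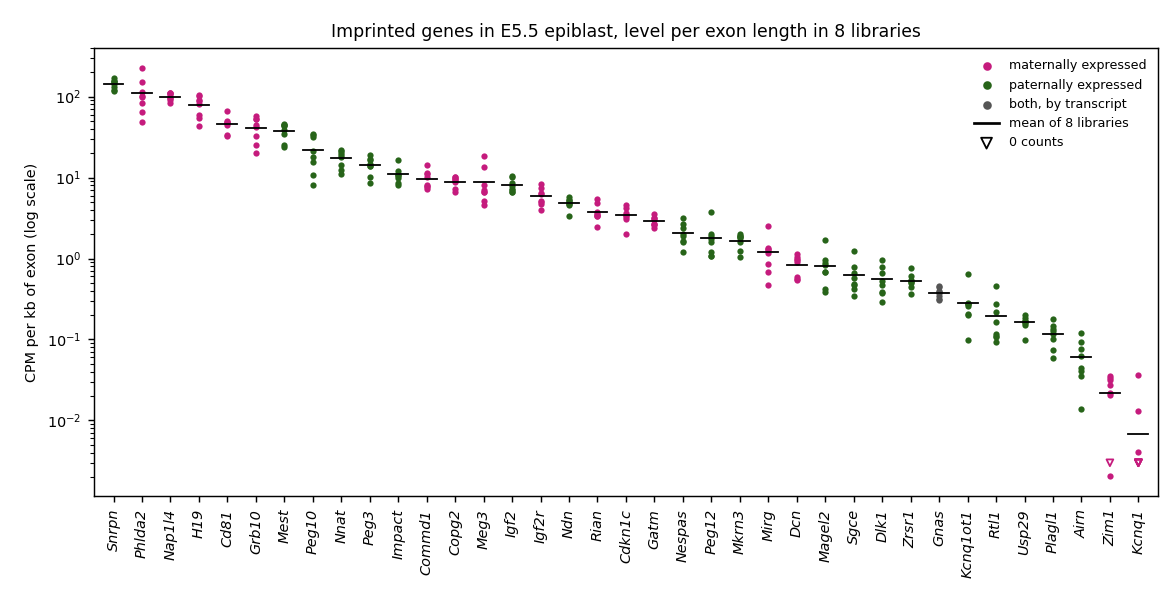
Level of each of the 37 imprinted genes in CPM per kb of exon (log y axis), ordered by the mean; points are libraries, coloured by the expressed allele, and lines are means of 8. Snrpn was highest at 143 and Kcnq1 lowest at 0.00675 CPM per kb.

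The response to 4OHT within clone 8 held most of the members' differences. A gene was called where the adjusted p of edgeR's quasi-likelihood test, by Benjamini-Hochberg over all 18321 genes, was under 0.05. On that rule 10 of 36 members were called (27.8%), 8 higher and 2 lower, where 16.6% of all tested genes were called, 8.00% higher and 8.60% lower. Of the maternally expressed members 6 of 15 were called and of the paternally expressed 4 of 20. Members had a median log2 fold change of 0.21, against 0.07 over all tested genes. Within the same comparison 10 of 14 extraembryonic ectoderm markers rose, 6 of 16 visceral endoderm markers fell and 4 of 9 epiblast markers fell; their part in the members' differences was not tested. The calls were lost in the fit without vehicle clone 8 replicate 1, which left 1 library in that group. No called member changed direction in that fit, and Peg10 stood at 1.22 on the log2 scale. Whether the loss came from the values of that library or from the smaller group was not tested. Without vehicle clone 8 replicate 2 the calls of Meg3, Mest, Grb10, Phlda2 and Copg2 were lost. Without 4OHT clone 8 replicate 2 those of Grb10, Igf2r, Phlda2, Copg2 and Snrpn were lost and Kcnq1ot1 was gained. In both of these fits fewer genes were called overall as well. Without 4OHT clone 8 replicate 1 the calls of Commd1, Copg2 and Snrpn were lost, and Dlk1 and H19 were gained. Peg10 and Peg3 were called in every leave-one-out fit except that without vehicle clone 8 replicate 1.

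Among genes of growth and placenta, Peg10, a retrotransposon-derived gene needed for the placenta (ENSMUSG00000092035, chr6:4747306-4760517), stood at 53.7 and 72.6 CPM in the clone 8 vehicle libraries and at 121 and 222 CPM after 4OHT. Both treated libraries were above both vehicle libraries, though they lay far apart. Peg10 rose by 1.44 on the log2 scale (SE 0.27, adjusted p 0.0130 by edgeR). It was 0.93 without 4OHT clone 8 replicate 2, and still called. Phlda2 (ENSMUSG00000010760, chr7:143501545-143503150) went from 72.8 and 54.9 CPM to 92.3 and 251 CPM, so that 1 treated library carried most of the difference. Its log2 change was 1.43 (SE 0.39, adjusted p 0.0387 by edgeR), which was 0.52 (adjusted p 0.170) without 4OHT clone 8 replicate 2 and 1.27 (adjusted p 0.0834) with the replicate number as a block.

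Grb10, an adaptor protein that dampens insulin and IGF signalling (ENSMUSG00000020176, chr11:11930508-12038683), had 183 and 229 CPM in vehicle and 292 and 486 CPM after 4OHT. Its log2 change was 0.92 (SE 0.21, adjusted p 0.0221 by edgeR), and 0.50 without 4OHT clone 8 replicate 2, when it was no longer called. Igf2r (ENSMUSG00000023830, chr17:12682406-12769664) had 36.9 and 43.8 CPM against 60.7 and 76.4 CPM, a log2 change of 0.77 (SE 0.17, adjusted p 0.0186 by edgeR). The ranges of vehicle and 4OHT did not overlap for either gene. Igf2, the ligand that Igf2r binds, stood at 40.3 and 37.8 CPM against 49.5 and 59.5 CPM and was not called.

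Peg3, a zinc finger protein tied to growth and maternal behaviour (ENSMUSG00000002265, chr7:6703892-6730431), had 113 and 137 CPM in vehicle and 188 and 221 CPM after 4OHT. Peg3 rose by 0.71 on the log2 scale (SE 0.14, adjusted p 0.0134 by edgeR). Usp29, whose start lies across the short sequence shown above, was not called, at 2.90 and 2.74 CPM against 3.0 and 1.80 CPM (log2 fold change -0.23, SE 0.33). Mest, a hydrolase-like protein and a paternally expressed growth gene (ENSMUSG00000051855, chr6:30723547-30748465), had 93.9 and 99.5 CPM against 136 and 176 CPM. It rose by 0.69 on the log2 scale (SE 0.14, adjusted p 0.0152 by edgeR). Copg2, a coatomer subunit (ENSMUSG00000025607, chr6:30747554-30896794), had 34.0 and 36.6 CPM against 46.6 and 51.3 CPM, a log2 change of 0.47 (SE 0.14, adjusted p 0.0481 by edgeR). Across the alternative fits Copg2 kept its call in 3 and lost it in 11, among them every leave-one-out fit. Its adjusted p by edgeR was 0.0535 with RLE size factors and 0.0554 without the expression filter. Its 3′ end overlaps that of Mest, so that reads of the pair cannot be told apart without strand.

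In the Dlk1-Meg3 cluster, Meg3 (ENSMUSG00000021268, chr12:109541001-109571726) stood at 126 and 121 CPM in vehicle and 331 and 248 CPM after 4OHT. Both treated libraries were far above every other library of the series, where the highest was 146 CPM. Meg3 rose by 1.23 on the log2 scale (SE 0.25, adjusted p 0.0161 by edgeR). Its neighbour Rian, a host of small nucleolar RNAs, had 69.4 and 60.6 CPM against 98.3 and 87.9 CPM, which gave a log2 fold change of 0.52 (SE 0.17, edgeR adjusted p 0.0606). Mirg, a host of microRNAs, had 9.48 and 9.79 CPM against 18.3 and 8.44 CPM, and Rtl1 1.03 and 1.39 CPM against 2.94 and 1.77 CPM. Neither was called.

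The members called lower were Commd1 and Snrpn. Both lost their calls without 4OHT clone 8 replicate 1, though neither changed direction. Across the alternative fits Commd1 kept its call in 12 and lost it in 2, and Snrpn kept it in 8 and lost it in 6. In the leave-one-out fits the log2 change ran from -0.92 to -0.56 for Commd1 and from -0.57 to -0.37 for Snrpn. Commd1, a regulator of copper handling and NF-kB (ENSMUSG00000051355, chr11:22896136-22982382), had 84.1 and 65.8 CPM in vehicle and 42.3 and 48.6 CPM after 4OHT. It fell by 0.72 on the log2 scale (SE 0.16, adjusted p 0.0194 by edgeR). Zrsr1, the paternally expressed gene within its intron, had 2.42 and 2.35 CPM against 3.40 and 1.62 CPM. Snrpn (ENSMUSG00000102252, chr7:59982495-60140219) had 371 and 327 CPM against 261 and 252 CPM and fell by 0.44 (SE 0.12, adjusted p 0.0368 by edgeR). Scaling by library totals gave -0.32 for Snrpn, no longer called, with an adjusted p of 0.0903; this scaling moved the median of all genes by 0.12 in the comparison.

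**Figure D3:**
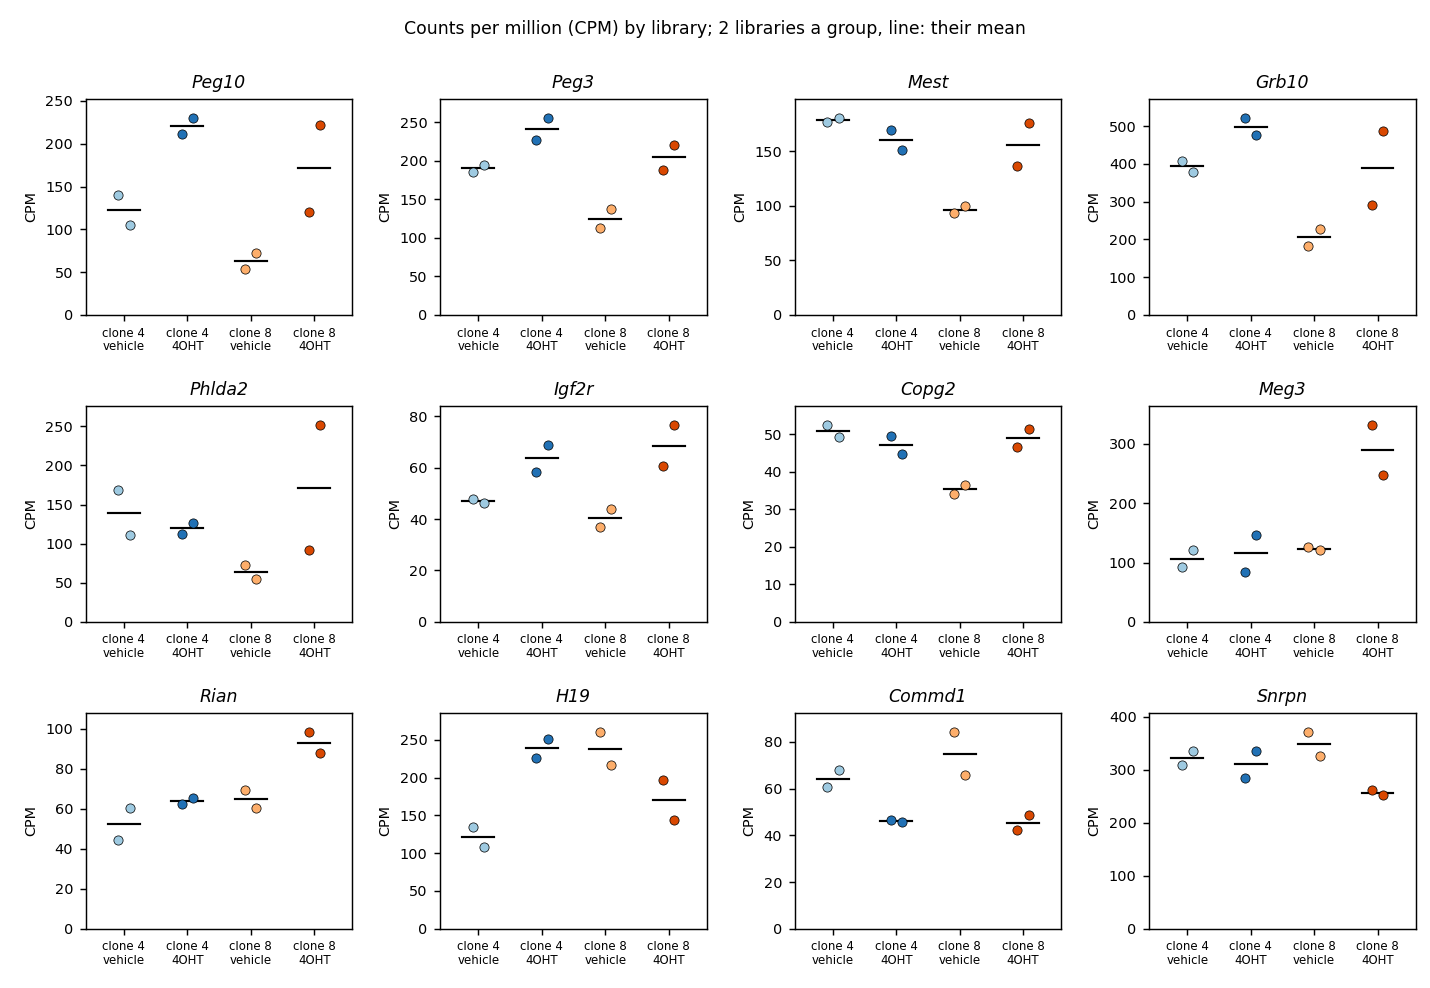
CPM of 12 imprinted genes (y axis, from 0) by clone and treatment (x axis); points are libraries, and lines the mean of 2. Peg10, Peg3, Mest, Grb10, Igf2r and Copg2 were lowest in vehicle clone 8, and Meg3 was highest in 4OHT clone 8 (331 and 248 CPM).

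In clone 4, 4OHT left 0 of 36 members past the threshold of edgeR's quasi-likelihood test, where 0.0382% of all tested genes passed. At an unadjusted p under 0.05 there were 9 of 36 members, against 9.90% of all tested genes, and DESeq2 called 3 members, against 2.55% of the genes. H19 had the lowest p (ENSMUSG00000000031, chr7:142575529-142578143). It stood at 135 and 108 CPM in vehicle and 226 and 251 CPM after 4OHT, with no overlap. This gave a log2 fold change of 0.97 (SE 0.18, edgeR adjusted p 0.0816). The next was Sgce, the epsilon-sarcoglycan gene, at 5.06 and 4.49 CPM against 8.41 and 13.3 CPM, or 1.18 on the log2 scale (SE 0.35, edgeR adjusted p 0.279).

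The 4OHT responses were then compared between the clones by their difference, clone 8 minus clone 4. H19 was the only member called, 1 of 36, where 2.83% of all tested genes were called. In clone 8 it stood at 260.2 and 216 CPM in vehicle and 197 and 144 CPM after 4OHT, so that its treated libraries were below the vehicle ones, in contrast to clone 4. The difference was -1.46 on the log2 scale (SE 0.25, adjusted p 0.0316 by edgeR). H19 was no longer called without clone 4 vehicle replicate 1 (-1.66) or 2 (-1.34), clone 4 4OHT replicate 1 (-1.54) or 2 (-1.38), or vehicle clone 8 replicate 1 (-1.35). The summed level of the visceral endoderm markers was also higher after 4OHT in clone 4 and lower in clone 8, with 0 of the 16 at 0 in any library. Of these markers 9 were called in the same difference, all in the direction of H19, and 7 of 14 extraembryonic ectoderm markers were called in the other direction. Their part in the H19 difference was not tested. For none of the 10 members called within clone 8 did the difference pass the threshold in edgeR's test. Their adjusted p-values ran from 0.0549 for Mest to 0.557 for Commd1, so that a response of these genes particular to clone 8 was not shown.

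**Figure D4:**
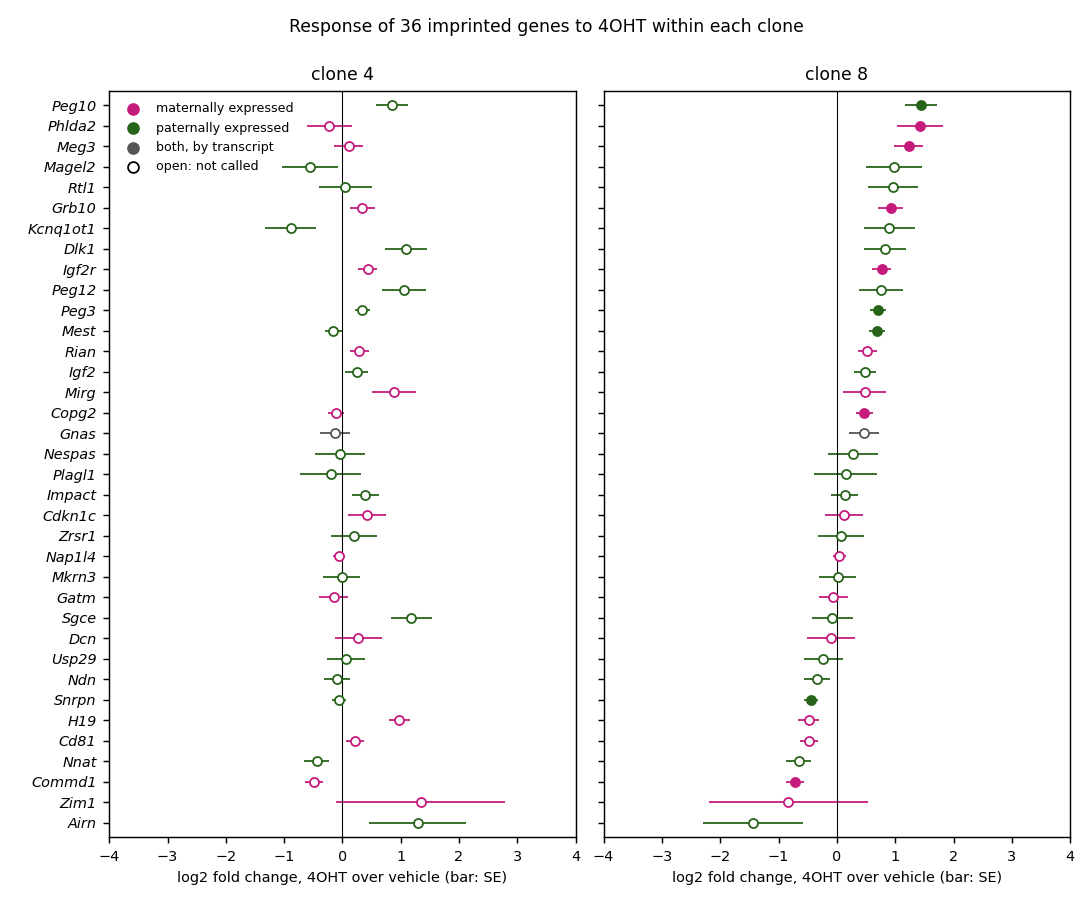
Log2 fold change of 4OHT over vehicle (x axis) for 36 imprinted genes within clone 4 (left) and clone 8 (right), with bars for the SE and filled points for members called at an adjusted p under 0.05. In clone 8, 10 members were called, and in clone 4, 0.

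The clones themselves were compared in vehicle, with the 2 vehicle clone 8 libraries that also served the response within clone 8. Of 36 members 4 were called (11.1%), 1 higher and 3 lower in clone 8, where 8.37% of all tested genes were called, 4.06% higher and 4.31% lower. H19 rose from 135 and 108 CPM in clone 4 to 260.2 and 216 CPM in clone 8, or 0.97 on the log2 scale (SE 0.18, adjusted p 0.0229 by edgeR). Mest was lower in clone 8, at 93.9 and 99.5 CPM against 177 and 180.2 CPM, a log2 difference of -0.88 (SE 0.14, adjusted p 0.0185 by edgeR). Grb10 had 183 and 229 CPM in clone 8 against 409 and 379 CPM in clone 4, a log2 difference of -0.94 (SE 0.21, adjusted p 0.0340 by edgeR). Peg3 had 113 and 137 CPM against 185 and 195 CPM, a log2 difference of -0.60 (SE 0.14, adjusted p 0.0339 by edgeR). For all 4 genes the libraries of the clones did not overlap. Without either clone 4 vehicle library, or without vehicle clone 8 replicate 1, no member was called, and far fewer genes were called overall as well. In the same comparison 10 of 14 extraembryonic ectoderm markers were lower in clone 8 and 7 of 16 visceral endoderm markers were higher, and their part in these differences was not tested.

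After 4OHT the clones differed in 0 of 36 members by edgeR's test, where 0.202% of all tested genes were called. At an unadjusted p under 0.05 there were 10 of 36 members, against 18% of all tested genes. DESeq2 called 3 members, against 5.54% of the genes. Meg3 had the lowest p, at 331 and 248 CPM in clone 8 against 84.1 and 146 CPM in clone 4. Its log2 difference was 1.33 (SE 0.25, edgeR adjusted p 0.0668). Without 4OHT clone 8 replicate 2 it passed, at 1.51 with an adjusted p of 0.0194. Cd81, a tetraspanin of the cell surface, had 96.4 and 94.1 CPM against 137 and 194 CPM, a log2 difference of -0.80 (SE 0.16, edgeR adjusted p 0.0699). The groups overlapped for neither gene.

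With both conditions in 1 additive fit, clone 8 and clone 4 differed in 0 of 36 members and in 0% of all tested genes by edgeR's test. An unadjusted p under 0.05 was reached by 10 of 36 members and by 15.9% of all tested genes, and DESeq2 called 2 members and 3.64% of the genes. The lowest p belonged to Rtl1, at 1.03, 1.39, 2.94 and 1.77 CPM in clone 8 and 0.589, 0.744, 0.699 and 0.681 CPM in clone 4. Every clone 8 library was above every clone 4 library. The log2 difference was 1.33 (SE 0.35, edgeR adjusted p 0.204). Reads of Rtl1 can come from its antisense partner, which is maternally expressed and hosts microRNAs, since strand is not known. Grb10 followed at a log2 difference of -0.65 (SE 0.18, edgeR adjusted p 0.204).

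With both clones in 1 additive fit, 4OHT against vehicle also gave 0 of 36 members by edgeR's test, where 0.00546% of all tested genes were called. There were 13 of 36 members at an unadjusted p under 0.05, 10 of them higher and 3 lower, against 16.9% of all tested genes. DESeq2 called 8 members, against 5.75% of the genes. Over the 36, 26 fold changes were above 0 and the median was 0.20, against 0.04 over all tested genes. Peg10 had the lowest p. It stood at 140.1 and 105 CPM in the clone 4 vehicle libraries and 211 and 229 CPM in the treated ones, and its clone 8 values are given above. It was higher after 4OHT in both clones, by 1.14 on the log2 scale (SE 0.22, edgeR adjusted p 0.115). Commd1 was lower in both, at 60.6 and 68.0 CPM against 46.4 and 45.6 CPM in clone 4. Its 4 vehicle libraries were all above its 4 treated ones, and its log2 fold change was -0.60 (SE 0.13, edgeR adjusted p 0.119). By DESeq2 both passed, Peg10 at an adjusted p of 0.000299 and Commd1 at 0.00194, and so did both in edgeR without the expression filter (6.34e-15 and 0.00911). In that last setting 1337 genes were called against 1 in the main fit, while the log2 fold change of Peg10 hardly moved, at 1.17. The smaller p-values therefore came with the setting and are not separate evidence on these genes.

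The responses were also set side by side by expressed allele. In the additive 4OHT comparison the median log2 fold change was 0.24 over 15 maternally and 0.17 over 20 paternally expressed members, with 11 of 15 and 14 of 20 above 0. Within clone 8 the medians were 0.12 and 0.21, and within clone 4 they were 0.27 and 0.05. In vehicle, clone 8 against clone 4 had medians of -0.09 and -0.14. Genes of either class were among the calls: within clone 8 Grb10, Igf2r, Phlda2, Copg2, Meg3 and Commd1 are maternally expressed, and Peg3, Peg10, Mest and Snrpn paternally. For Copg2 and Commd1 maternal expression is known in some tissues only. Differences between the classes were not tested.

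The other members ranged as follows over the 8 libraries. Nnat, a small membrane protein of neural and endocrine tissue, ran from 20.4 to 39.9 CPM and was below every vehicle library in every 4OHT library, although no comparison called it. Impact, a regulator of translation, ran from 41.4 to 85.0 CPM, Ndn, a growth suppressor of neurons, from 12.4 to 21.4 CPM, and Gatm, an enzyme of creatine synthesis, from 7.17 to 10.6 CPM. Cdkn1c, an inhibitor of the cell cycle, ran from 4.08 to 9.31 CPM. Kcnq1ot1, the noncoding RNA that silences the Kcnq1 cluster, had 9.13 and 18.6 CPM in 4OHT clone 4 and 60.7 and 23.8 CPM in 4OHT clone 8, with 19.1 to 26.2 CPM in vehicle. Dlk1 ran from 1.66 to 5.42 CPM with every 4OHT library above every vehicle library. Dcn, a matrix proteoglycan, ran from 3.15 to 6.58 CPM, Gnas, the stimulatory G protein alpha subunit, from 3.47 to 5.19 CPM, and its antisense RNA Nespas from 3.76 to 9.82 CPM. Peg12 ran from 2.83 to 9.99 CPM, Mkrn3, a ubiquitin ligase, from 2.65 to 5.08 CPM, and Magel2 from 1.81 to 7.81 CPM. Plagl1 ran from 0.465 to 1.39 CPM, Airn from 0.0501 to 0.430 CPM and Zim1 from 0 to 0.287 CPM.

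Genes that maintain imprints were followed as a list of 16. Within clone 8, 4 of the 16 rose after 4OHT and 2 fell by edgeR's test, where 8.00% of all tested genes rose and 8.60% fell. In that comparison 10 of 14 extraembryonic ectoderm markers rose and 6 of 16 visceral endoderm markers fell, and their part in the list's changes was not tested. Without vehicle clone 8 replicate 1, 0 genes were called there by edgeR. Zfp57, the zinc finger protein that binds methylated imprints, had 12.6 and 25.7 CPM in vehicle and 47.6 and 40.9 CPM after 4OHT, a log2 change of 1.21 (SE 0.29, adjusted p 0.0244 by edgeR). The others that rose were the maintenance methyltransferase Dnmt1 (0.64), the histone methyltransferase Setdb1 (0.60) and the chromatin protein Smchd1 (0.46 on the log2 scale). Trim28, the corepressor that ZFP57 recruits, fell by 1.09 (SE 0.19, adjusted p 0.0108 by edgeR). It stood at 745 and 585 CPM in vehicle clone 8, 348 and 278 CPM in 4OHT clone 8, and 254 to 345 CPM in clone 4. Ctcf, the insulator protein that binds the H19-Igf2 control region, fell by 0.94, from 143 and 121 CPM to 80.4 and 56.8 CPM. Both stood highest in vehicle clone 8. Against vehicle clone 4 they were higher there by 1.21 (Trim28) and 1.04 (Ctcf), while Dnmt1 and Setdb1 were lower (-0.68 and -0.66), 4 of 16 against 8.37% of all tested genes, and 0 genes were called there without the same library. In the difference of responses Trim28 (-1.18) and the demethylase Tet1 (1.17) were called, 2 of 16 against 2.83% of all tested genes. Their adjusted p-values by edgeR, 0.0491 and 0.0470, lay just under the threshold. Both calls were lost in the fits without vehicle clone 8 replicate 1 or without either 4OHT clone 4 library. In the other 4 comparisons edgeR called 0 of the 16, with 1 to 4 at an unadjusted p under 0.05, and DESeq2 called 0 to 2. Over all tested genes the shares there were 9.90% to 18% at that unadjusted p and 2.55% to 5.75% by DESeq2.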

How the data were processed

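RNA was sequenced from 8 pools of E5.5 mouse epiblasts, 2 for each of 2 clones with 4OHT or vehicle. The deposited table holds raw counts of reads for Ensembl genes in 8 columns, 1 a library; the values are whole numbers with unequal totals, so the authors applied no scaling to these counts before deposit. The submitters' processing notes name bcl2fastq 2.19.1, STAR 2.5.3a and build mm10; the counting program, the annotation and the use of strand are not given in the sources used here. Of 52636 identifiers, 52403 matched a symbol and 233 did not. Exon lengths, positions and overlaps came from the GENCODE annotation of GRCm38 (mm10), and sequences from RefSeq on the same build.

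Groups were compared by edgeR 4.0.16 under R 4.3.3, using filterByExpr over the 4 groups (minimum count 10), TMM, glmQLFit and glmQLFTest, and Benjamini-Hochberg adjustment over the 18321 tested genes. The comparisons of 4OHT with vehicle and of the clones came from 1 additive fit. The 5 others were contrasts of group means in a second fit, whose 4 groups had a pooled spread. SE is the log2 fold change divided by the square root of F. The procedure was tested on simulated data before use.

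Every called member was to be described in full, with the 2 lowest p-values where none was called, and the 4 highest and 4 lowest levels. The members, gene lists and tests were chosen with earlier results of these data known. Alternatives were RLE size factors, library totals, 2 other filters, DESeq2 1.42.0, the replicate number as a block, an adjusted p under 0.10, another combination of the groups, transcript length, and leaving out each library. No coordinates were converted between builds.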

Additional observations from a re-analysis of the deposited data

Results flagged for a closer look

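In 6 of 72 sets of 4 libraries, the 4 of a condition for each of 36 members, 1 library stood far from the others by Dixon's ratio; chance marks about 1 in 20 sets, or 3.6 here. Peg10 was low in 4OHT clone 8 replicate 1, at 121 CPM against 211 to 229 CPM in the other 3 treated libraries. Mkrn3 was low in the same library, at 2.65 CPM. Meg3 was low in vehicle clone 4 replicate 1, at 92.5 CPM against 121 to 126 CPM. Cdkn1c was low in vehicle clone 4 replicate 2, at 4.08 CPM, and Kcnq1ot1 in vehicle clone 8 replicate 2, at 19.1 CPM. Peg12 was high in 4OHT clone 4 replicate 2, at 9.99 CPM. The 4 libraries of a set come from 2 clones.

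The response of H19 to 4OHT differed between the clones, by -1.46 on the log2 scale in the test of the difference itself. H19 was 1 of 36 members called there, where 2.83% of all tested genes were called, so the share of members was near that of all genes. Across the alternative fits H19 kept its call in 9 and lost it in 5, all of them leave-one-out fits.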

How the results depend on the processing

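Direction was followed for the called members of each comparison, or for the 2 with the lowest p where none was called. None of these log2 fold changes changed direction under the alternatives run. The median over all tested genes, which lay near 0, could do so. For the difference of responses it went from 0.054 to -0.0047 without 4OHT clone 8 replicate 1. Counts of members called depended on the tool, the filter and single libraries. The number of genes called overall stands in parentheses after each count of members. Without the expression filter 8 members (1337 genes) were called for 4OHT, 8 (938) for the clones, 4 (728) for 4OHT in clone 4, 15 (4263) for 4OHT in clone 8, 7 (2114) for the difference of responses, 8 (2901) for the clones in vehicle and 9 (1414) for the clones in 4OHT. DESeq2 called 8 (1053), 2 (666), 3 (468), 14 (4308), 4 (1864), 7 (3064) and 3 (1015) in the same order. With at least 10 counts in every library the calls were 1 (78) for 4OHT in clone 4, 2 (699) for the difference and 1 (150) for the clones in 4OHT. Library totals gave 2 (411) for the difference. An adjusted p under 0.10 gave 1 (110) for 4OHT in clone 4, 2 (1445) for the difference, 7 (2881) for the clones in vehicle and 3 (551) for the clones in 4OHT. The mean of the contrasts within clones, in the fit of the 4 groups, gave 5 (1063) for 4OHT. Leaving out each library gave 0 to 1 (0 to 267 genes) for 4OHT in clone 4, 0 to 9 (0 to 3179) for 4OHT in clone 8, 0 to 4 (0 to 1205) for the difference, 0 to 8 (0 to 2518) for the clones in vehicle and 0 to 5 (0 to 704) for the clones in 4OHT. The cause was not tested. Same-numbered libraries of a clone did not deviate together (correlations of deviations 0.0947 in clone 4 and -0.0101 in clone 8), so the numbers were not taken as a pairing. With a replicate block in the fit 2 members (451 genes) were called in the difference, and Phlda2 and Copg2 lost their calls in clone 8. With the longest transcript Airn, Plagl1 and Nap1l4 moved to 0.159, 0.174 and 136 CPM per kb. Precision is limited by 2 libraries a group, as the SEs show.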

Other observations

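Imprinted genes outside the 37 were followed as a second list of 35, of which 29 were tested. Within clone 8, 3 of the 29 rose after 4OHT by edgeR's test and 0 fell (10.3% called), a share below the 16.6% of all tested genes. Sfmbt2, a paternally expressed Polycomb-type protein of the trophoblast, had 18.4 and 26.5 CPM in vehicle clone 8, 79.5 and 77.3 CPM in 4OHT clone 8 and 52.8 to 64.6 CPM in clone 4. It rose by 1.81 on the log2 scale (SE 0.19). Slc38a4, a paternally expressed amino acid transporter of the placenta, had 44.9 and 57.4 CPM in vehicle clone 8 and 113 to 127 CPM in the other 6 libraries, and rose by 1.23 (SE 0.14). Klf14, a maternally expressed transcription factor, rose by 1.30 (SE 0.35). Both Sfmbt2 (-1.42) and Slc38a4 (-1.25), with the trophoblast regulator Ascl2 (-1.61), were lower in clone 8 than in clone 4 in vehicle, 3 of 29 (10.3%) against 8.37% of all tested genes. Sfmbt2 (1.92), Slc38a4 (1.28) and Ddc (-1.67), an enzyme of amine synthesis, were called in the difference of responses, 3 of 29 against 2.83% of all tested genes. Without vehicle clone 8 replicate 1, 0 genes were called by edgeR in these 3 comparisons. The summed level of the 14 extraembryonic ectoderm markers was lowest in the same vehicle clone 8 libraries, though 3 of the 14 were higher there than in vehicle clone 4. The part of these markers in the differences was not tested. In the other 4 comparisons edgeR called 0 of the 29, with 5 to 7 at an unadjusted p under 0.05, and DESeq2 called 1 or 2. Over all tested genes the shares there were 9.90% to 18% at that unadjusted p and 2.55% to 5.75% by DESeq2.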
